A study of Homo sapiens with 12 samples.

Results

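The unstimulated state of wild-type (WT) MDA-MB-231 cells was described from the 2 libraries labelled WT at 0 h, chosen by their labels out of 12 libraries in the series. MDA-MB-231 is an established human breast cancer line that grows as a spindle-shaped, invasive culture. The 0 h cells had received no PMA/Ionomycin, a phorbol ester given with a calcium ionophore to switch on protein kinase C and calcium signalling. The other groups had 2 libraries each. They were WT cells after 6 and 24 h of PMA/Ionomycin and ΔCRE cells at 0, 6 and 24 h. In ΔCRE cells, part of a regulatory element (CRE) of the ETS1 promoter had been deleted by CRISPR/Cas9. All cells were of the same line and were grown in culture, and the WT cells carried no deletion. Expression was given in FPKM, the number of sequenced fragments scaled to transcript length and to library size, so that levels can be set side by side between genes. The study calls the replicates biological, but no label names separate cultures, so the spread between them may be partly technical.

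Epithelial cells are held together by E-cadherin junctions and carry keratin filaments, while mesenchymal cells build vimentin filaments and secrete matrix. In the epithelial-mesenchymal transition (EMT), repressors of the SNAIL and ZEB families bind E-box letters in promoters of junction genes. Breast tumours are also sorted by luminal genes, such as the oestrogen receptor, and by basal genes, such as the keratins of the outer gland layer.

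Of the 6 marker genes of the line, 4 were expressed and 2 were near 0. VIM, which encodes vimentin (chromosome 10, 17270258 to 17279592 in hg19, the build used throughout for the features), read 1656 and 1543 FPKM in replicates 1 and 2. Its mean of 1599.6 ± 79.9 FPKM (SD, n = 2) ranked 58 of 24331 features. AXL, a receptor tyrosine kinase of mesenchymal-like tumour cells (chromosome 19, 41725108 to 41767671), read 115 FPKM in each library. CD44, the hyaluronan receptor (chromosome 11, 35160417 to 35253949), read 87.5 and 89.3 FPKM. EGFR, the EGF receptor (chromosome 7, 55086725 to 55275031), read 19.84 and 20.01 FPKM. CDH1, which encodes E-cadherin (chromosome 16, 68771195 to 68869444), read only 0.0246 and 0.0129 FPKM. ESR1, the oestrogen receptor (chromosome 6, 152011631 to 152424408), was listed at 0 in both libraries. The levels therefore followed the usual description of the line for all 6 genes, in both libraries.

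The table of FPKM states no depth, but low FPKM values fell on steps, as whole fragments would give. After allowing for an offset of 168 bases in transcript length, 63 of 96 single-exon features in replicate 1 and 65 of 93 in replicate 2 lay within 1% of a whole number of 1 to 6 fragments. The fitted scale was about 17400000 and 16600000 fragments, which is an estimate from the values and may include a scaling between libraries. On that scale 3 fragments, the limit that a count of 0 allows, come to 0.208 and 0.217 FPKM for a transcript of 1000 bases, to 0.0943 and 0.0985 FPKM for a transcript of 2000 bases, and to 0.0451 and 0.0471 FPKM for 4000 bases. These limits cover counting error only. The CDH1 values stood in a ratio of 2.001 on the same scale, as 2 fragments against 1 would. Values under 0.1 FPKM in both libraries are called near 0 and values of at least 1 FPKM in both expressed. For short transcripts a listed 0 does not bound the level under 0.1 FPKM.

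By these limits 10929 features (44.9%) were expressed and 10361 (42.6%) were near 0, of which 8470 were listed at 0 in both libraries. These shares are the background for the counts given for each list below. At least 10 FPKM was reached in both libraries by 5880 features, at least 100 by 838 and at least 1000 by 98. The median of the expressed features was 12.1 FPKM. A listed 0 can be a failed estimate. All 20 symbols that have a feature on each sex chromosome were at 0 in all 12 libraries, among them SLC25A6, a mitochondrial carrier, and CD99, a surface glycoprotein. All 1187 features on alternate haplotypes or unplaced contigs were at 0 in both libraries too. By contrast, none of 12 POLR2, 12 EIF3 and 35 NDUF subunit features was at 0 in either library.

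The most abundant transcripts served protein synthesis. The 20 highest features held 13.5% and 12.5% of the FPKM sum, and 16 of them named ribosomal protein genes. RPL41 led with 7340 and 6121 FPKM, followed by RPL37A with 5806 and 4951 FPKM. The other members of the top 20 were GAPDH, the glycolytic enzyme, at 5538 and 4958 FPKM, the translation factor EEF1A1 at 3311 and 3068 FPKM, and 2 actin-binding thymosins. TMSB10 read 4006 and 3357 FPKM and TMSB4X 3118 and 3008 FPKM. The 100 highest features held 36.9% and 35.2% of the sum, and 63 of them named ribosomal protein genes. All ribosomal protein features together took 26.9% and 25.5%. All 18 household genes were at 10 FPKM or more in both libraries, from GAPDH down to TBP, the TATA-binding protein (a gene named after its value was seen), at 12.2 and 10.5 FPKM.

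The libraries were close to each other. Over 11123 features with a mean of at least 1 FPKM, log2(FPKM + 1) gave Pearson's r of 0.976 and Spearman's rho of 0.983 across features, which are not independent replicates. On this scale 60 of these features differed 2-fold or more, and 54 of the 60 were small RNA features such as SNORD56, at 0 and 1899 FPKM, and MIR30C2, at 1336 and 0 FPKM. Polyadenylated-RNA libraries do not capture mature small RNAs, and MIR21, SNORD96A and MIR30C2 shared the same value, 1336 FPKM, in replicate 1. The values of small RNA features were not interpreted further. The 5 largest differences among features at a mean of at least 10 FPKM were all of this kind, namely SNORD56, MIR30C2, SNORD28, MIR4461 and SNORD84, each at 0 in 1 library. Without small RNA features r was 0.995, and 6 features differed 2-fold, led by REXO1 at 9.70 and 692 FPKM and TMEM42 at 5.64 and 153 FPKM. On the FPKM + 1 scale the median difference between replicates was 1.09-fold for features with means of 1 to 10 FPKM, 1.08-fold from 10 to 100 and 1.09-fold from 100 to 1000. Above 1000 FPKM it was 1.10-fold. The deviation moved with transcript length, and its cause was not tested. Across features, the log2 difference of replicate 1 from replicate 2 had a median of 0.14 for 269 features whose longest transcript was under 1000 bases and of -0.06 for 3300 features over 5000 bases. Ribosomal protein features were 1.11 times as high in replicate 1, by the median. Among the 391 listed genes (of 741) that were expressed, the FPKM values themselves differed by a median of 1.09-fold. The largest difference was 1.59-fold, for TFF1, a secreted trefoil peptide of luminal cells, at 1.84 and 1.16 FPKM.

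**Figure D1:**
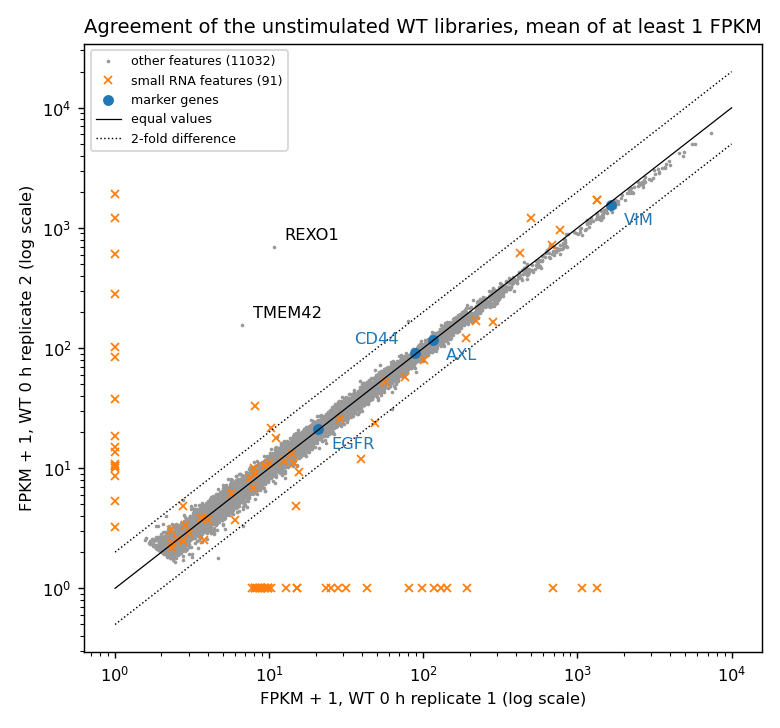
FPKM + 1 of each feature in WT 0 h replicate 1 (x axis) and replicate 2 (y axis), both on log scales, for features with a mean of at least 1 FPKM. Solid and dotted lines mark equal values and a 2-fold difference. Most points lie between the dotted lines, the 4 expressed marker genes lie on the diagonal, and small RNA features (crosses) make up 54 of the 60 features that differ 2-fold.

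The plot of replicate 1 against replicate 2 shows the tight diagonal of the other features. Along its edges lie the small RNA features that are at 0 in 1 library.

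Lineage genes split within lists as well as between them. Simple-epithelium keratins were abundant. KRT18 read 506 and 489 FPKM, its filament partner KRT8 506 and 446, KRT7 473 and 415, and KRT19 66.0 and 59.3 FPKM. XBP1, a secretory transcription factor of luminal cells, read 47.105 and 43.996 FPKM. In all 12 of 16 luminal genes were expressed, against 44.9% of all features, with a list median of 2.23 FPKM. The hormone receptor genes ESR1 and PGR were the 2 listed at 0. GATA3, a luminal transcription factor named after its values were seen, was low at 2.35 and 2.83 FPKM. The luminal keratins and the hormone receptors thus lay at opposite ends of the same list.

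The basal list was the lower, with 3 of 16 genes expressed, 11 near 0 and a median of 0.00703 FPKM. The expressed members were ID4, an inhibitor of helix-loop-helix factors, at 6.35 and 7.32 FPKM, the forkhead factor FOXC1 at 2.95 and 3.36 FPKM, and MYLK, myosin light chain kinase, at 2.60 and 2.29 FPKM. The basal keratins KRT14, KRT16, KRT17, KRT6A, KRT6B and KRT6C were listed at 0 in both libraries. These keratins are near-identical in sequence to each other and to pseudogenes, so single values are uncertain. KRT5 read 0 and 0.0281 FPKM, and TP63, the master factor of basal epithelium, 0.0467 and 0.0406 FPKM.

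Junction genes were mixed. Of 22 epithelial adhesion genes, 11 were expressed and 6 were near 0, with a median of 1.001 FPKM. The 3 highest were desmosomal genes. The plakophilin PKP3 read 27.0 and 22.3 FPKM, plakoglobin JUP 24.2 and 24.3 and the desmosomal cadherin DSG2 20.04 and 21.25 FPKM. The claudin CLDN4 read 18.9 and 16.7 FPKM and desmoplakin DSP 13.5 and 13.4 FPKM. Besides CDH1, the near-0 members were TJP3 of tight junctions, the plakophilin PKP1, the trafficking GTPase RAB25, the membrane protease PRSS8 and its inhibitor SPINT1, none above 0.0554 FPKM in either library. A near-0 level of the E-cadherin transcript therefore stood beside expressed desmosome transcripts, PKP1 excepted.

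To show the letters the EMT repressors bind, the CACCTG E-box (CAGGTG on the other strand) was searched in the 250 bases before each RefSeq gene start (GRCh38.p14). Of 35116 promoters 17.5% held it, and of 27305 genes 20.6% had it in at least 1 promoter. A promoter was at hand for 12 of the 22 adhesion genes, not for CDH1, and 8 of the 12 held the E-box, as did 2 of 7 epithelial transcription factor genes and 3 of 19 mesenchymal genes. Within the adhesion list it was found in 5 of 6 expressed genes and in 3 of 4 near-0 genes. The pair shown are the adhesion promoter with the most E-boxes, that of the claudin CLDN7 with 4 (chr17:7262479-7262728, minus strand), and that of RAB25 with 1 (chr1:156060910-156061159, plus strand). They are printed 5′ to 3′ with E-boxes in capitals.
CLDN7: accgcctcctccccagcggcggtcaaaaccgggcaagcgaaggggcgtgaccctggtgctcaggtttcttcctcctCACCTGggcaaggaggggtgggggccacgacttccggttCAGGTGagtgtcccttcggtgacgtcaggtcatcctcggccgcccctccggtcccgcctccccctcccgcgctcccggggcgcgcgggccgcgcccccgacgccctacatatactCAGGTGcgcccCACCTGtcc
RAB25: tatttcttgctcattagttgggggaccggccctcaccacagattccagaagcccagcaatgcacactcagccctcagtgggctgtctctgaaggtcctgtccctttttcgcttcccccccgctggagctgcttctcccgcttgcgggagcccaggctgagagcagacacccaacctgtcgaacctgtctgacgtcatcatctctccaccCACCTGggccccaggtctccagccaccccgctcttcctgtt
CLDN7 was expressed, at 5.43 and 6.41 FPKM, while RAB25 was listed at 0 in both libraries. The letters were thus present on either side of the expression limit, and a match describes sequence, not binding. The promoters were chosen after the values were seen.

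The mesenchymal genes were mostly high, with 21 of 27 expressed, 7 of them at 100 FPKM or more. The median over all 27, expressed or not, was 18.9 FPKM. The median of 12.1 FPKM given above covers expressed features only. LGALS1, the lectin galectin-1, read 2021 and 1709 FPKM (rank 43), above VIM. The caveolar coat gene CAV1 read 242 and 266 FPKM, the matrix protein TGFBI 199 and 193 FPKM and the membrane-actin linker MSN 190 and 183 FPKM. The exceptions were CDH2, which encodes N-cadherin, at 0.0273 and 0 FPKM, the surface protein THY1, listed at 0, and the gelatinase MMP2 at 0.0178 and 0.0373 FPKM. N-cadherin, a common marker of EMT, was thus near 0 as E-cadherin was.

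Of the 6 EMT transcription factors, 4 were expressed at low levels. SNAI2 read 7.85 and 7.86 FPKM, ZEB1 6.27 and 7.49, SNAI1 2.99 and 2.35, and ZEB2 2.45 and 2.21 FPKM. TWIST1 and TWIST2 were listed at 0 in both libraries. All 4 expressed members stayed under the 12.1 FPKM median of expressed features. Of 12 epithelial transcription factors, only TFAP2C, at 19.3 and 22.9 FPKM, and KLF5, at 7.51 and 8.01 FPKM, were expressed. The epithelial regulators GRHL2, GRHL3, OVOL1, OVOL2, ELF5 and EHF were near 0, none above 0.0416 FPKM.

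**Figure D2:**
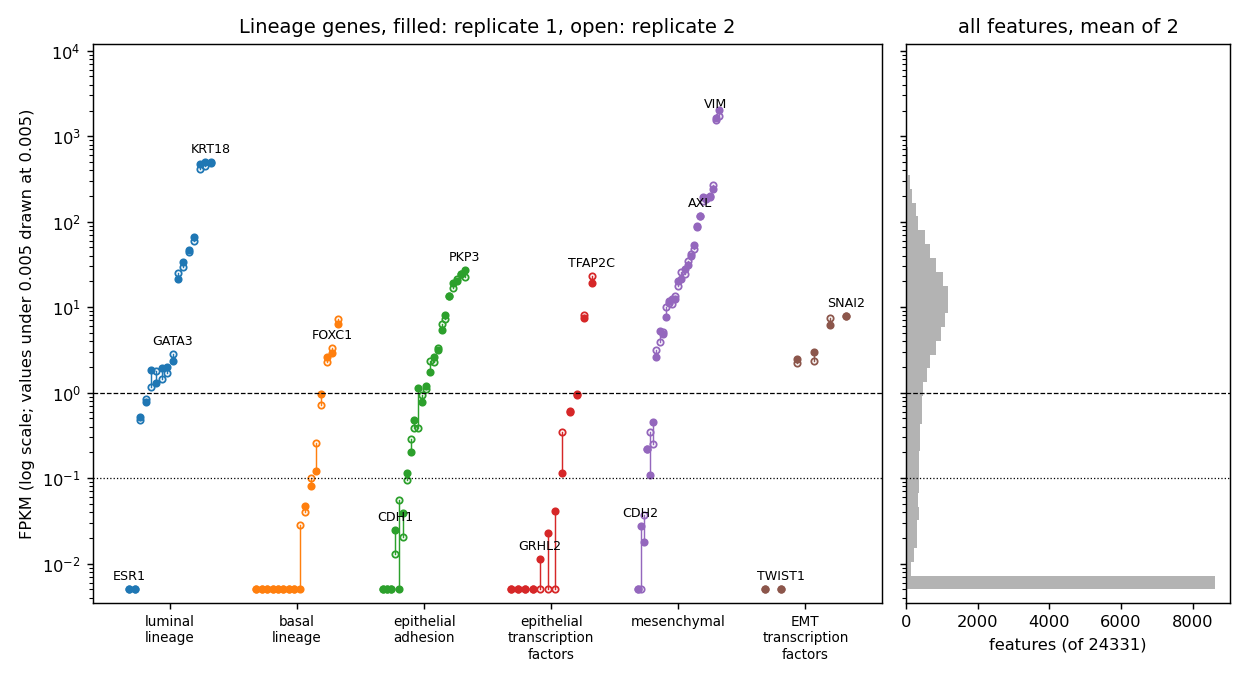
FPKM (log scale) of every member of 6 lineage lists in replicate 1 (filled) and replicate 2 (open), joined by a line, with the distribution of all 24331 features on the right. Dashed and dotted lines mark 1 and 0.1 FPKM, and values under 0.005 are drawn at 0.005. Luminal and mesenchymal members reach above 100 FPKM, while ESR1, CDH1, CDH2, GRHL2 and TWIST1 lie at the bottom.

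The lineage plot shows the widest replicate gaps near the bottom, where a value rests on a few fragments. Higher up, CLDN3, named after its values were seen, read 1.15 and 0.382 FPKM.

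Receptor tyrosine kinases carry growth signals into the cell, and 22 of 58 were expressed while 26 were near 0. AXL was the highest. EPHA2, the ephrin receptor, followed at 82.1 and 78.0 FPKM, then the Wnt co-receptor RYK at 19.6 and 22.4 FPKM, EGFR, and the HGF receptor MET at 15.2 and 17.2 FPKM. The values of RYK and EGFR overlapped between libraries, so their order is not resolved. ERBB2, named after its values were seen, read 12.4 and 11.8 FPKM. ERBB4, INSRR, PDGFRA, KIT, FLT3, FLT1, KDR and FLT4 were the first 8 near-0 members, none above 0.0913 FPKM. They include KIT, the receptor of stem cell factor, and the VEGF receptors FLT1, KDR and FLT4.

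Nuclear receptors are hormone-gated transcription factors, and 21 of 48 (43.8%) were expressed, near the 44.9% of all features. PPARG, the fatty acid receptor of fat cells, was the highest at 47.6 and 50.4 FPKM. NR2F6 read 37.9 and 32.2 FPKM, the oxysterol receptor NR1H2 35.9 and 33.1, the glucocorticoid receptor NR3C1 31.6 and 33.9, and ESRRA, an orphan relative of the oestrogen receptor, 27.7 and 24.6 FPKM. The values of NR2F6, NR1H2 and NR3C1 overlapped between libraries, so their order is not resolved. RARB, NR1H4, NR1I2, HNF4A, RXRG, NR2E1 and ESR1 were near 0, with no value above 0.0690 FPKM.

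Chemokine receptors were the emptiest receptor class, with 1 of 23 expressed and 19 near 0. CCRL2, an atypical chemokine receptor, read 6.05 and 6.61 FPKM. CXCR4, the receptor of CXCL12, read 0.0382 and 0 FPKM, and CXCR1, CXCR2, CXCR3, CXCR5 and CCR2 were listed at 0. CCR1 read 0 and 0.0478 FPKM and CCR3 0.0372 and 0 FPKM. In contrast, 30 of 44 cytokine and death receptors were expressed. TNFRSF12A, the receptor of TWEAK, read 164 and 140 FPKM, the lymphotoxin receptor LTBR 68.9 and 59.6, the TNF receptor TNFRSF1A 58.0 and 57.7, TNFRSF21 50.8 and 51.3, and the TGF-beta receptor TGFBR2 29.3 and 31.8 FPKM. The near-0 members were IL1RL1, IL13RA2, IL10RA, TNFRSF1B and NGFR.

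Among 37 G protein-coupled receptors for lipids, proteases and nucleotides, 12 were expressed. The protease-activated receptor F2RL1 was far above the rest at 170 and 175 FPKM. The adenosine receptor ADORA2B read 19.0 and 19.5 FPKM and the thrombin receptor F2R 10.41 and 11.99 FPKM. P2RY11 shares a feature with its neighbour PPAN, and its 51.6 and 47.4 FPKM cannot be split between them. Prostaglandin receptors PTGER1, PTGER3 and PTGIR were near 0.

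At the cell surface, 43 of 50 antigens were expressed, with a median of 28.4 FPKM. BSG (CD147) read 486 and 451 FPKM, the tetraspanins CD63, CD151 and CD81 392 and 360, 225 and 195, and 160 and 148 FPKM, and the ecto-nucleotidase NT5E (CD73) 137 and 151 FPKM. CD70, CD109, VCAM1 and PROM1 were near 0, while CD99 is among the listed zeros that may be failed estimates. Of 26 integrin subunits 12 (46.2%) were expressed, near the 44.9% of all features. ITGB1, the partner of most alpha chains, read 265 and 295 FPKM, ITGA3 90.7 and 81.3, ITGB4 40.3 and 39.4, ITGA6 31.5 and 33.9, and ITGB5 23.9 and 22.6 FPKM. The laminin-binding chains ITGA3, ITGA6 and ITGB4 thus stood near the top, and the leukocyte alpha chains ITGAL, ITGAM and ITGAD were listed at 0. Other chains known from leukocytes, named after their values were seen, were expressed, ITGB2 at 2.25 and 1.81 FPKM and ITGAE at 5.24 and 5.62 FPKM.

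Class I antigen presentation genes were expressed, with B2M, the shared light chain, at 450 and 460 FPKM, HLA-C at 39.1 and 34.3, HLA-E at 29.9 in each library and HLA-B at 19.7 and 18.8 FPKM. The class II genes HLA-DRA, HLA-DRB1, HLA-DPA1, HLA-DPB1, HLA-DQA1 and HLA-DQB1 were at 0. HLA genes are polymorphic and share reads, so their levels are uncertain, and features on alternate haplotypes were at 0 throughout.

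Secreted cytokines were few. Of 32, 10 were expressed, and the median was 0.433 FPKM. MIF, the macrophage migration inhibitory factor, read 1467 and 1224 FPKM (rank 80). IL11 read 143 and 141 FPKM and LIF, of the same IL6 family, 30.5 and 29.2 FPKM. IL18 read 20.7 and 21.1 FPKM and CSF1, the macrophage growth factor, 15.1 FPKM in each library. IL24, CSF3, CXCL5, CXCL6, CXCL10, CXCL12, CX3CL1 and CCL3 were near 0, the highest being IL24 at 0.0414 FPKM. Growth factors and their antagonists were more common, with 34 of 52 expressed. The IGF-binding protein IGFBP4 read 1004 and 892 FPKM, the matricellular YAP targets CYR61 592 and 582 and CTGF 132 and 141, IGFBP7 104 and 91.5, and the EGFR ligand HBEGF 74.2 and 70.4 FPKM. HGF and IGF1, ligands of MET and IGF1R, were listed at 0.

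**Figure D3:**
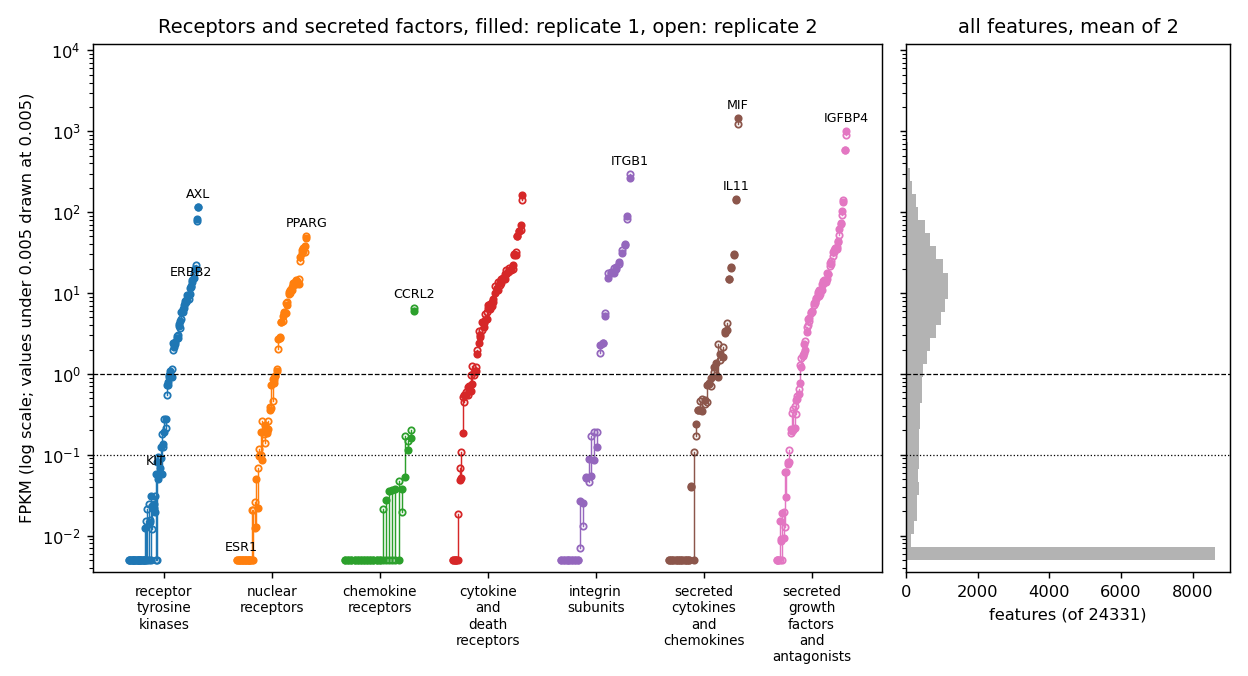
FPKM (log scale) of every member of 7 receptor and secreted-factor lists in replicate 1 (filled) and replicate 2 (open), joined by a line, with all 24331 features on the right. Dashed and dotted lines mark 1 and 0.1 FPKM, and values under 0.005 are drawn at 0.005. CCRL2 is the only chemokine receptor above 1 FPKM, and AXL, PPARG, ITGB1, MIF and IGFBP4 top their lists.

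The plot of receptors and secreted factors shows long tails at the floor for the kinase, nuclear and chemokine receptors. Integrin subunits and secreted cytokines have such tails too. The tails are short for cytokine and death receptors and for growth factors and antagonists.

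Of 39 secreted proteases and inhibitors, 21 were expressed. Lysosomal cathepsin CTSD read 284 and 256 FPKM, the cathepsin inhibitor CST3 231 and 197, the urokinase PLAU 202 and 190, CTSZ 179 and 158 and the metalloproteinase inhibitor TIMP1 119 and 98.0 FPKM. The metalloproteinases MMP2, MMP3, MMP7, MMP9, MMP10, MMP12 and MMP28 were near 0, the highest being MMP3 at 0.0693 FPKM. Of 37 matrix genes 27 were expressed. After TGFBI came the laminin chain LAMB3 at 135 and 122 FPKM, the membrane collagen COL13A1 at 130 and 121, thrombospondin THBS1 at 107 and 112 and the basement membrane collagen COL4A2 at 51.0 and 47.2 FPKM. The near-0 members included COL1A2, BGN, DCN and LUM, listed at 0, and COL3A1 at 0.0430 and 0.0449 FPKM. Other matrix genes of fibroblasts, named after their values were seen, were expressed, among them FN1 at 30.9 and 34.3 FPKM, COL6A1 at 28.005 and 24.4 and SPARC at 12.6 and 11.05 FPKM.

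Among transcription factors, 37 of 43 signal-responsive members were expressed. The stress factor ATF4 read 297 and 263 FPKM, FOSL1 of the AP-1 family 104 and 101, the hypoxia factor HIF1A 83.7 and 94.6 and FOSL2 58.6 and 53.0 FPKM. EGR3 was the only member near 0. The factors the study places on the ETS1 promoter were all expressed. RELA read 30.8 and 31.1 FPKM, NFKB1 12.5 and 11.9 FPKM and NFATC2 2.05 and 2.17 FPKM. ETS1 itself read 24.0 and 23.7 FPKM, second among 27 ETS factors (16 expressed) to ETV4 at 39.7 and 34.0 FPKM. ELK3, ETV5 and ERF read 20.9 and 21.3, 20.9 and 21.3, and 21.3 and 19.4 FPKM, and did not differ beyond their spread. ERG, FLI1, FEV, ETV7, ELF5, EHF, SPI1 and SPIC, several of them factors of blood or endothelium, were near 0.

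Of 44 lineage transcription factors 17 were expressed and 20 near 0. The chromatin protein HMGA1 read 483 and 426 FPKM, far above KLF6 at 21.2 and 24.4, KLF10 at 15.1 and 18.4 and RUNX1 at 14.6 and 15.6 FPKM. NKX2-1, best known as a lung and thyroid factor, read 14.99 and 15.53 FPKM. RUNX3, SOX2, SOX10, MSX1, MSX2, NANOG, LIN28A and LIN28B were near 0. Of 28 cancer-testis genes 5 were expressed, MAGEA3 at 68.1 and 61.6 FPKM, MAGEA6 at 38.8 and 39.9, CSAG1 at 37.5 and 36.7, MAGEA12 at 33.5 and 30.2 and MAGEC1 at 21.0 and 18.7 FPKM, while 20 were near 0. MAGEA members are near-identical, so reads may be divided among them.

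Of 30 markers of other cell types 3 were expressed. CD68, a lysosomal protein of macrophages that other cells also make, read 33.8 and 26.1 FPKM, the glial filament GFAP 2.259 and 2.005 FPKM and COL1A1 1.10 and 1.30 FPKM. The list summed to 39.6 and 31.8 FPKM. PTPRC (CD45), CD3E, CD4, MS4A1, FCGR3A, HBA1 and HBB, defining genes of blood cells, were listed at 0 in both libraries.

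Proliferation genes were high. Of 23 cell cycle genes 19 were expressed, with PCNA, the replication clamp, at 164 and 176 FPKM, topoisomerase TOP2A at 146 and 159, CCNB1 at 151 in each library, CDK4 at 157 and 140 and CDK1 at 93.4 and 104 FPKM. The 4 near-0 members were the cyclin CCND2, listed at 0, and 3 neighbours on the short arm of chromosome 9. The CDK inhibitor genes CDKN2A and CDKN2B were listed at 0 and MTAP, a purine salvage enzyme, read 0 and 0.0251 FPKM. These neighbours lie in a run of 28 consecutive features, small RNAs left out, from 21006365 to 24545674 on chromosome 9, none of which exceeded 0.0251 FPKM. This run was found after the values were seen, by extending outward from CDKN2A while features stayed near 0. In it 26 features were listed at 0 in both libraries, and 17 of them were interferon genes, which most unstimulated cells do not express. KLHL9, a ubiquitin ligase adaptor, was at 0 too. The flanking gene FOCAD read 0.386 and 0.373 FPKM, and TUSC1 beyond the other end 7.006 and 5.444 FPKM. In 11 libraries of the series, the ΔCRE library labelled 0 h replicate 1 left out, the highest value in the run was 0.128 FPKM. The library left out stood apart from the WT 0 h libraries, as given below, and its values in the run are not covered here. DNA copy number was not measured.

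**Figure D4:**
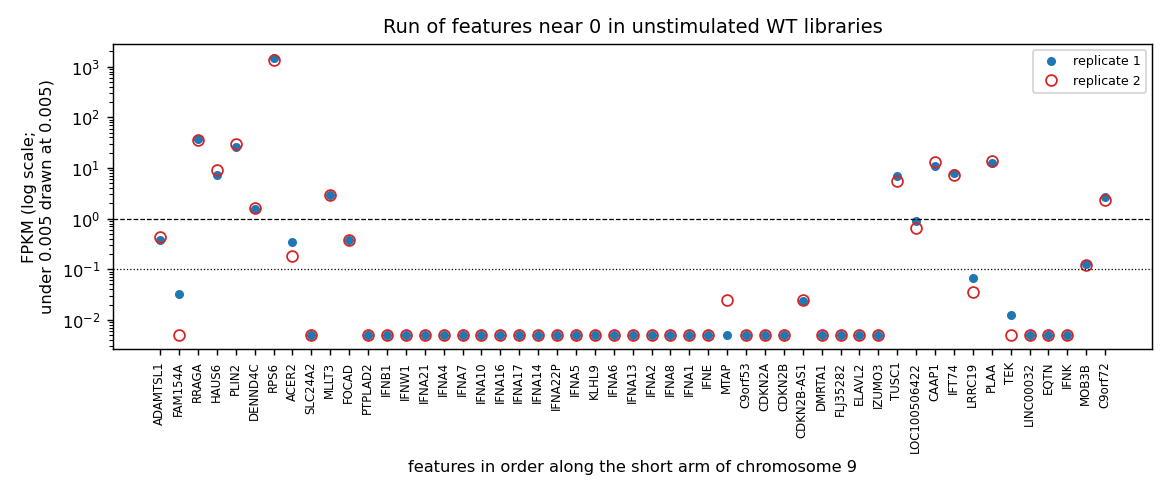
FPKM (log scale, values under 0.005 drawn at 0.005) of features in their order along part of the short arm of chromosome 9, in WT 0 h replicate 1 (filled) and replicate 2 (open rings). Dashed and dotted lines mark 1 and 0.1 FPKM. The 28 features between FOCAD and TUSC1 stay at or under 0.0251 FPKM.

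The plot along chromosome 9 shows expressed genes on both sides of the run. That none stands within it follows from how the run was drawn.

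To see where this state differed from other WT cells, the 0 h libraries were compared with the 4 libraries of stimulated WT cells. The ΔCRE library labelled 0 h replicate 1 stood apart, with r of 0.881 and 0.868 with the WT 0 h libraries against 0.979 and 0.976 for its partner, and ΔCRE libraries stayed out of this fit. With limma on log2(FPKM + 1), 2768 of 11258 tested features (24.6%) were higher at 0 h and 2730 (24.2%) lower at an adjusted p under 0.05, but only 103 and 289 of them by 2-fold or more. The filter took the mean over all WT libraries, 4 of them stimulated. Features near 0 at 0 h could thus enter only through their stimulated values, and only as lower, so the counts in each direction are not compared. The median log2 difference over all tested features was 0.01. The stimulated value is the mean of the log values at 6 and 24 h, so a gene that peaked at 1 time is averaged.

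Many secreted cytokines and chemokines were lower than in stimulated cells. Of 32 members, 12 had a mean of at least 1 FPKM at 0 h and were tested, and of these 8 were lower at 0 h and 1 higher. A further 9 entered the test only through their stimulated values, so that all 9 being lower was set by the filter. IL8 (CXCL8), the neutrophil chemokine, read 1.76 and 1.49 FPKM at 0 h, 1605 and 1594 at 6 h, and 134 and 139 at 24 h. The log2 difference was -7.49 ± 0.06 (SE, limma, adjusted p = 6.6e-09), and groups without overlap were a condition of the choice. IL1B read 0.737 and 0.453 FPKM at 0 h, 167 in each library at 6 h, and 326 and 330 at 24 h (log2 difference -7.21 ± 0.08 SE, limma). ICAM1, the leukocyte adhesion receptor, read 1.56 and 1.91 FPKM at 0 h and from 49.8 to 260 FPKM in stimulated libraries. PTGS2, the inducible prostaglandin synthase, read 0.476 and 0.608 FPKM at 0 h and from 36.69 to 95.03 FPKM afterwards. IL1B and PTGS2, with 0 h means of 0.595 and 0.542 FPKM, entered the test only through their stimulated values. Their direction was therefore set by the filter too. RNU6-28 completed the 5 largest differences in this direction but is a small RNA feature. The single member higher at 0 h was IL18, by 0.89 on the log2 scale.

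The baseline levels of ETS1 and of the factors the study places on its promoter were also lower than after stimulation. ETS1, at 24.0 and 23.7 FPKM, stood under its 139 and 145 FPKM at 6 h and 36.2 and 39.7 FPKM at 24 h, without overlap (log2 difference -1.59 ± 0.06 SE, limma, adjusted p = 3.48e-06). NFKB1 differed by -1.20 ± 0.05, NFATC2 by -0.81 ± 0.07 and RELA by -0.60 ± 0.06 on the log2 scale (SE, limma, adjusted p = 9.5e-06, 0.00014 and 0.00028). Of the marker genes, AXL was higher at 0 h, at 115 FPKM against 112 and 106 at 6 h and 49.1 and 48.9 at 24 h (log2 difference 0.65, limma, adjusted p = 9.0e-05). CD44 was lower at 0 h, with 188 and 190 FPKM at 6 h and 99.1 and 102 at 24 h (log2 difference -0.64, limma, adjusted p = 8.1e-05). VIM was lower by the fit (-0.28, limma, adjusted p = 0.0060), but its 1614 and 1597 FPKM at 24 h lay within the 0 h values, and only the 6 h libraries, at 2354 and 2358 FPKM, were above them. EGFR did not pass (-0.14, limma, adjusted p = 0.094).

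Of the 5 largest differences toward 0 h, 4 were small RNA features (MIR21, SNORD96A, SNORD83B and SNORD47), which are not interpreted. The other was SDPR, a caveolar protein, at 36.7 and 37.7 FPKM against 3.90 to 5.28 FPKM in stimulated libraries (log2 difference 2.81 ± 0.07 SE, limma, adjusted p = 5.9e-07). The next 4 that were not small RNA, among features with a mean of at least 10 FPKM at 0 h, were named after their values were seen. They were KRT80 at 49.2 and 45.6 FPKM against 9.53 to 10.4, the Notch target HES1 at 25.8 and 28.3 against 5.23 to 7.23, the oestrogen-metabolizing enzyme CYP1B1 at 21.1 and 23.1 against 3.36 to 7.40, and the neurotrophin BDNF at 19.0 and 18.9 against 4.65 to 5.08 FPKM. Groups without overlap were a condition of this choice, for SDPR as well, so the lack of overlap is not a result. Among 113 tested genes that ranked in the top 5 of their list at 0 h, 9 were higher and 8 lower by 2-fold or more on the log2(FPKM + 1) scale. Over all 11258 tested features these counts were 103 and 289. The ranking used the 0 h values, which favours genes higher at 0 h, so these genes are only a description. The higher genes ran from TFAP2C at 1.11 through F2RL1, KRT7, TNFRSF21, TOP2A, IGFBP4, ITGB4 and SNAI2 to ID4 at 1.96. The lower genes ran from TIMP1 at -1.05 through KLF6, LAMB3, FOSL1, HLA-B, ETS1 and LIF to CSF1 at -3.37.

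In other lists, with 24.6% higher and 24.2% lower over all tested features, 11 of 19 tested cell cycle genes were higher and 3 lower at 0 h. Of the class I genes, HLA-B, HLA-C and HLA-E were lower at 0 h, with log2 differences of -1.49, -0.83 and -0.87, and B2M did not pass. Of 21 mesenchymal genes 8 were higher and 10 lower, and of 12 luminal genes 5 were higher and 1 lower. Of 36 secreted growth factors and antagonists 18 were higher and 15 lower. The receptor tyrosine kinases, with 6 higher and 6 lower of 23, were near the shares of all features. No cancer-testis gene of 6 tested passed, by limma, and of 18 household genes 13 did not.

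**Figure D5:**
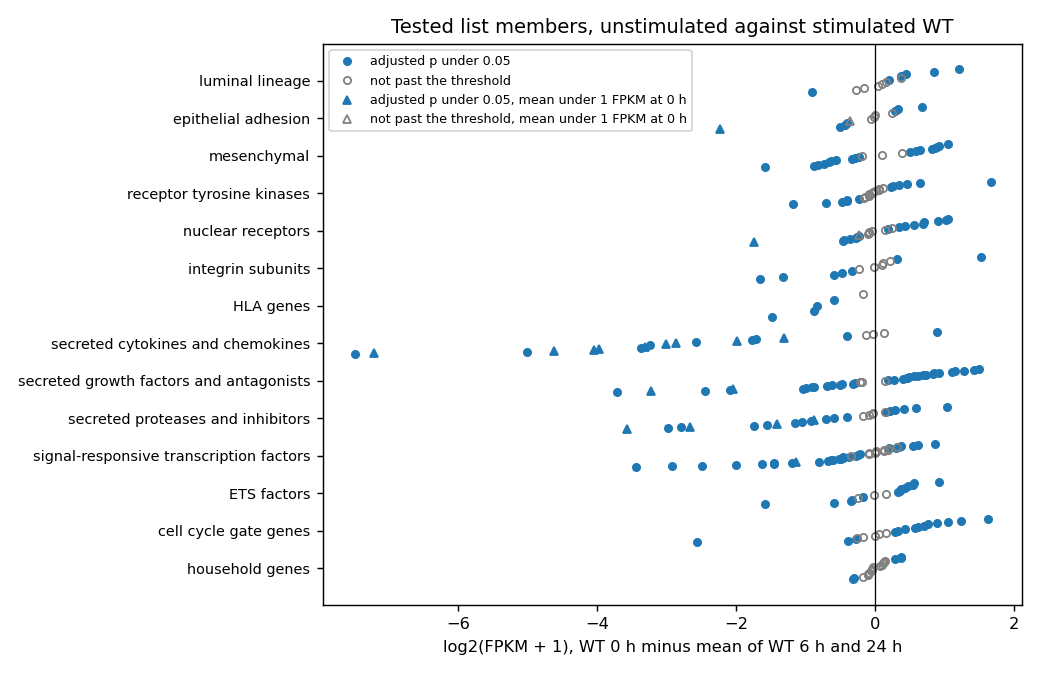
Difference in log2(FPKM + 1) between WT 0 h and the mean of WT 6 h and 24 h (x axis) for tested members of 14 lists (rows). Filled symbols passed an adjusted p under 0.05 in limma and open ones did not, and triangles mark members with a mean under 1 FPKM at 0 h. IL8, at -7.49, lies farthest left, and 13 of 18 household genes did not pass.

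The plot of list members shows the household genes around 0 and marks as triangles the members that were under 1 FPKM at 0 h and so could enter only through the stimulated libraries.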

How the data were processed

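RNA was extracted from WT and ΔCRE MDA-MB-231 cells, and stranded, poly-A-selected libraries were sequenced on a NextSeq 500. Per the study's methods, the authors mapped sequences to hg19 with TopHat 2.0.12 and estimated expression with Cufflinks 2.2.1. They deposited FPKM values for 24331 features in 12 libraries, and the gene annotation and any scaling between libraries are not given in the sources used here. Features carry symbols, 405 name more than 1 gene, and 2 column names with a digit in place of a letter were matched to the only labels left. Where a symbol named several features, the feature highest on average in the WT libraries was used.

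Levels, ranks and limits were computed from the 2 WT 0 h libraries with Python 3.11.15 and pandas 2.3.3. The comparison with stimulated WT cells used limma 3.58.1 in R 4.3.3 on log2(FPKM + 1), in 1 model of 3 WT groups (6 libraries), for features with a mean of at least 1 FPKM over them, with Benjamini-Hochberg adjustment. The added 1 FPKM shrinks differences of low genes. The script was tested on simulated data with 200 changed features. It recovered 60% of those changed by 0.5 on the log2 scale and 92.5% of those changed by 1. Of its calls, 4% and 3.6% were false. A gene that did not pass may therefore still differ. P-values measure only the spread between these libraries.

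Named genes are, per list, the 5 highest, and those near 0 (at most 8), the 6 markers, the 20 highest features, the 5 largest replicate differences, ETS1, NFATC2, NFKB1 and RELA, and the 5 largest differences per direction from stimulated cells. That last rule took features past the threshold, at a mean of at least 10 FPKM in the higher group, whose groups did not overlap. Other named genes were picked with their values in view. The members and lists were chosen with earlier results of these data known. Some genes that the rule would name are not reported here.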

Additional observations from a re-analysis of the deposited data

How the results depend on the processing

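The number of expressed features stayed within 10886 to 11535 under all planned settings, which were the mean of both libraries, TPM, each library alone and no small RNA features. The mean share of the 100 highest features, ranked by the mean of both libraries, was 36.1%. It stayed between 35.5% and 36.9% without small RNA features or with each library alone, ranked within that library. The 35.2% given for replicate 2 ranks by the mean of both libraries. Agreement depended on the features kept. Pearson's r was 0.957 with a pseudocount of 0.1, 0.988 without a filter, 0.963 at a mean of at least 5 FPKM and 0.995 without small RNA features, a setting chosen after seeing the data. The number of features differing 2-fold was 75, 63, 37 and 6 under the same settings. Rescaling to TPM raised the marker levels, for VIM to 2742 TPM, since the FPKM sums were 600054 and 566255. The comparison with stimulated WT cells called 5498 features, and 4221 to 5769 with a pseudocount of 0.1, without a filter, at a mean of at least 5 FPKM, with TPM, with quantile normalization or without trend. TPM moved the share of higher calls from 50.3% to 59.5%. Leaving out each WT library in turn gave 4214 to 5174. A fit of all 12 libraries called 1234 features, 34.4% of them higher, and VIM and AXL no longer passed. Without the ΔCRE library labelled 0 h replicate 1, a setting chosen after seeing the data, it called 5732. The replicate block gave 6441 calls, 5491 of them shared with the fit without it. Differences between replicates 1 and 2 correlated between times at only -0.03, -0.02 and -0.01, so the numbers do not pair the libraries. Of the genes followed under every setting, SNORD47 lost its call under 6 settings, and no difference changed sign. Low levels rest on a few fragments, and 2 libraries give no test of a level.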

Other observations

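NKX2-1 and its neighbour SFTA3, both best known from lung, were expressed together. SFTA3, chosen after its values were seen, read 11.3 and 10.8 FPKM in the unstimulated WT libraries, beside 14.99 and 15.53 FPKM for NKX2-1.

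The EGFR ligand AREG has a pair of features on chromosome 4. The first read 0.216 and 0.395 FPKM, and the other was listed at 0 in both libraries. The features were chosen after their values were seen.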
